A study of Mus musculus with 10 samples.

Results

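Ribosomal protein genes of the liver were compared between old mice that lack Arg2 in hepatocytes and their littermates. The members were the protein_coding rows of the count table whose symbols follow the Rpl, Rps and Rplp naming pattern for the cytosolic ribosome or the Mrpl and Mrps pattern for the mitochondrial ribosome, with at least 10 counts over all libraries. They came to 157 genes, 80 cytosolic (49 of the large and 31 of the small subunit, by symbol) and 77 mitochondrial (48 large and 29 small), of 55487 genes in the table and 15734 protein_coding genes that reach 10 counts. The LKO group was Arg2LKO mice, described by the submitters as deficient in Arg2 specifically in hepatocytes, and the Flox group was their Arg2fl/fl littermates, in which the floxed allele is not deleted. All animals were of strain C57B/6J as the labels spell it, were co-housed, ate normal chow and were 22 months old. The sources used here name neither the promoter that drives the Cre recombinase nor the sex of the animals. Total RNA was taken from liver tissue, selected with oligo-dT and sequenced in 5 LKO and 5 Flox libraries. No label says that each library is a separate mouse, so p-values measure only the spread between these libraries, part of which may be technical.

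Cytosolic ribosomes translate the messages of the nucleus and are built from ribosomal RNA and a set of proteins in roughly equal proportion, the large subunit forming peptide bonds and the small subunit reading the message. Mitochondrial ribosomes are a separate machine whose proteins are encoded in the nucleus and imported, and they make the few respiratory chain subunits encoded by mitochondrial DNA. In liver, a tissue that secretes much of the plasma protein, many messages of cytosolic ribosomal proteins start with a run of pyrimidines, the 5′ terminal oligopyrimidine or TOP motif, through which mTOR signalling controls their translation.

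Arg2, the targeted gene, which encodes the mitochondrial arginase, gave no check of the labels. It had 4 and 6 counts in LKO 4 and LKO 5 and 0 in the other LKO libraries, against 4 and 5 counts in Flox 2 and Flox 4 and 0 in the other Flox libraries. The totals per library lay between 43331354 and 54951415 counts, and a count of 0 allows up to 3 counts in a library, by counting error only. Hepatocyte identity was plain, since Alb, the albumin gene, took 10.7% ± 0.909 of all counts in LKO libraries and 7.12% ± 2.40 in Flox libraries (SD, n = 5 each). The serum amyloid genes Saa1 and Saa2, which the liver makes in the acute phase response, took at most 0.0803% of the counts of any LKO library, against 1.72% in Flox 2, 3.43% in Flox 3, 0.394% in Flox 4 and at most 0.00970% in the other Flox libraries.

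Together the cytosolic members took a slightly smaller part of the counts in LKO livers, and the groups overlapped. Their summed share was 1.41%, 1.49%, 1.39%, 1.36% and 1.53% in LKO 1 to 5, against 1.46%, 1.67%, 1.59%, 1.62% and 1.44% in Flox 1 to 5. The means were 1.44% ± 0.0699 in LKO and 1.56% ± 0.102 in Flox (SD, n = 5 each), a ratio of 0.922. LKO 2 and LKO 5 lay inside the Flox range, Flox 1 and Flox 5 inside the LKO range, and Flox 2, Flox 3 and Flox 4 above every LKO library. These last were also the Flox libraries with the highest serum amyloid shares, and the part of that in the ratio was not tested. With Alb and the serum amyloid genes taken out of the total, the ratio was 0.947.

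The mitochondrial members took 0.226%, 0.226%, 0.211%, 0.213% and 0.234% of the counts in LKO 1 to 5, against 0.233%, 0.245%, 0.237%, 0.220% and 0.230% in Flox 1 to 5. The means were 0.222% ± 0.00962 in LKO and 0.233% ± 0.00909 in Flox (SD, n = 5 each), a ratio of 0.952. The groups overlapped here too, and Flox 4, high in the cytosolic share, was the lowest Flox library in the mitochondrial one. The cytosolic total was 6.48 ± 0.146 times the mitochondrial total in LKO and 6.69 ± 0.458 times in Flox (SD, n = 5 each). Large subunit messages of the cytosolic ribosome outnumbered those of the small subunit 1.56 ± 0.0286 to 1 in LKO and 1.57 ± 0.0421 to 1 in Flox, so the balance of the subunits differed by less than the spread between libraries. Transcripts encoded by mitochondrial DNA took 6.06% ± 1.63 of counts in LKO and 5.14% ± 1.99 in Flox. In bulk tissue, fewer cells of a type and less RNA per cell cannot be told apart.

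**Figure D1:**
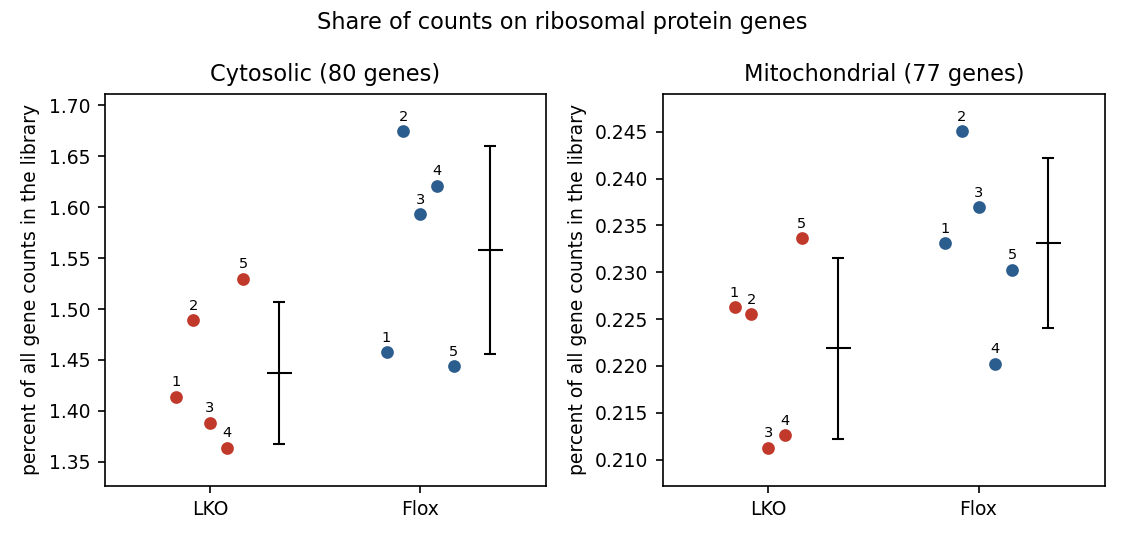
Share of all gene counts of a library that fell on the 80 cytosolic (left) and the 77 mitochondrial (right) ribosomal protein genes, in percent; the axes do not start at 0. Each numbered point is a library and the bars are the mean ± SD of 5 libraries; LKO libraries reach 1.53% and Flox libraries 1.67% in the cytosolic panel, and the groups overlap in both panels.

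Gene by gene, no ribosomal protein passed the test between LKO and Flox. Of the members, 79 cytosolic genes (all but Rpl3l, a muscle form of Rpl3) and all 77 mitochondrial genes passed edgeR's filter on low counts. At an adjusted p under 0.05 by edgeR's quasi-likelihood test with Benjamini-Hochberg adjustment, 0 of them were called, as were 0 of all 15894 genes tested (0%), so the absence of calls is not particular to ribosomal proteins. DESeq2 called 11 genes and limma-voom 0 over the whole table, and neither called a member. At an unadjusted p under 0.05, edgeR's test picked 0 of 79 cytosolic and 2 of 77 mitochondrial members, against 1193 of all genes (7.51%). Among all genes, 504 were higher in LKO at that level (3.17%) and 689 lower (4.33%), and the 2 mitochondrial genes were Mrps10, higher, and Mrps12, lower.

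The estimated differences of the cytosolic members were small and mostly of the same sign. Of the 79, 63 had a log2 fold change (LKO over Flox) below 0 and 16 above, with a median of -0.06, while over all genes 51.6% lay below 0 and the median was -0.01. The large subunit had 37 of 48 below 0 (median -0.05) and the small subunit 26 of 31 (median -0.07). The mitochondrial members were split more evenly, with 45 of 77 below 0 and a median of -0.03; the large subunit had 30 of 48 below 0 (median -0.03) and the small subunit 15 of 29 (median -0.01). The median standard error of a single gene was 0.106 over cytosolic and 0.103 over mitochondrial members, against 0.185 over all genes and 0.123 over the genes with an average log2 CPM of at least 3. All these genes were measured in the same 10 libraries, so the counts of signs are not counts of independent events.

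Of single libraries left out, Flox 2 moved the sign count of the cytosolic genes most. Flox 2 was the highest of all 10 libraries for 37 of the 79 cytosolic members, and LKO 4 was the lowest for 25. With 1 library left out, the members below 0 ran from 54 (without Flox 2) to 68 (without Flox 5), and were 61 without LKO 4. Without Flox 2 and Flox 3, 52 cytosolic members lay below 0 and 27 above, and the mitochondrial members stood at 40 below and 37 above. With library totals in place of TMM scaling (edgeR's trimmed mean of M-values), 69 of 79 cytosolic and 54 of 77 mitochondrial members lay below 0. That scaling also moved the median log2 fold change of all tested genes, from -0.01 to -0.05, so these counts hold a shift common to all genes. Only 2 cytosolic members, Rpl24 and Rps10, and 0 mitochondrial ones had a log2 fold change beyond 0.5 in size, which 12.4% of all genes had, and 4.85% of those with an average log2 CPM of at least 3.

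**Figure D2:**
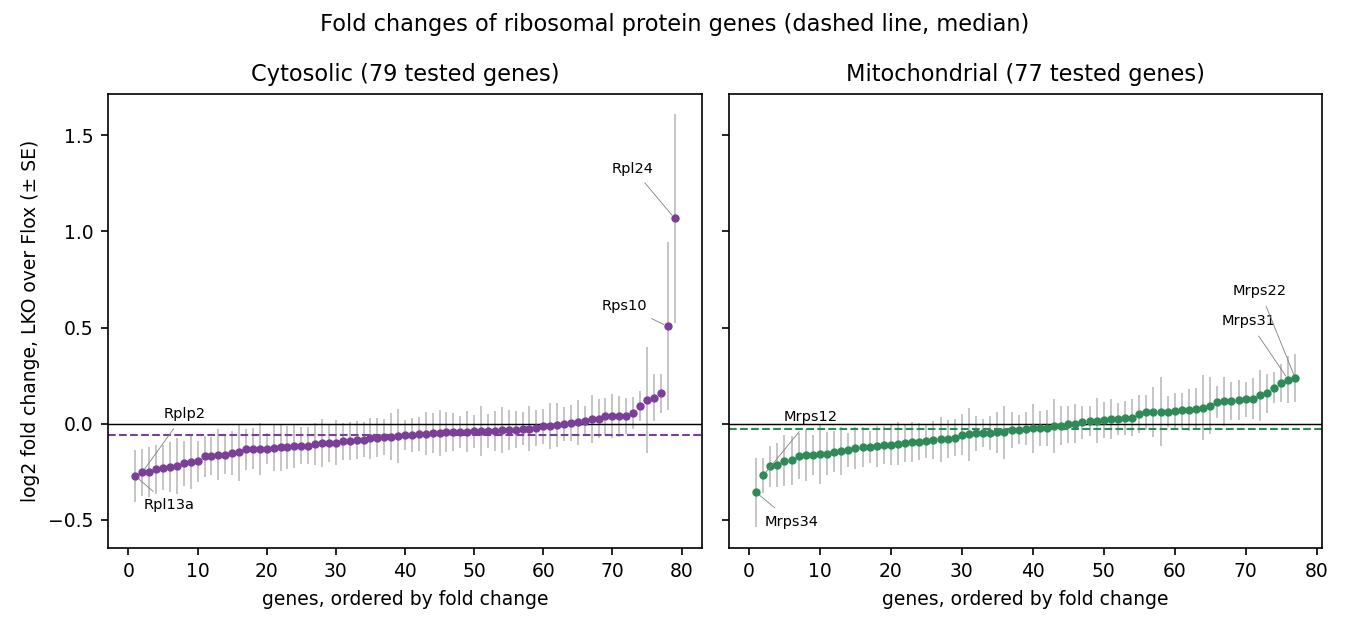
Log2 fold change, LKO over Flox, with its standard error (grey lines) for each of the 79 tested cytosolic and 77 tested mitochondrial ribosomal protein genes, ordered by value; the dashed lines mark the medians of -0.06 and -0.03. All points but Rpl24, Rps10 and Mrps34 lie within 0.3 of 0.

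Runs of pyrimidines near the listed start of the transcript were more common in the cytosolic than in the mitochondrial class. A run wholly before that start was counted too, so the match is looser than the TOP motif. RefSeq promoter windows (GRCm38.p6, 250 bases before to 50 after each start) were matched by symbol for 60 of 80 cytosolic and 68 of 77 mitochondrial members. An unbroken run of at least 8 pyrimidines overlapping the 10 bases on either side of a listed start was found in 29 of 60 cytosolic members (48.3%) and in 9 of 68 mitochondrial members (13.2%), against 16% of the 16802 protein_coding genes in the windows. The 30 bases around the start (10 before and 20 after) are shown for genes whose values are given below, 5′ to 3′ on the strand of the gene, with a run of at least 8 pyrimidines in capitals. The first set are some of the cytosolic genes with such a run.
Rplp2 (chr7:141447641-141447670, plus strand): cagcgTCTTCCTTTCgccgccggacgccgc
Rpl13a (chr7:45128726-45128755, minus strand): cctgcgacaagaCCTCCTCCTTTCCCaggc
Rps27 (chr3:90213629-90213658, minus strand): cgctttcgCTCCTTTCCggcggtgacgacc
Rps6 (chr4:86857348-86857377, minus strand): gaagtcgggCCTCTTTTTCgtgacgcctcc
Rpl22l1 (chr3:28805498-28805527, plus strand): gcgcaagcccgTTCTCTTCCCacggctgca
The run sits right around the start in each of the genes shown, and its place shifts by a few bases with the listed start. This does not hold for every cytosolic gene with a run. In Rps27l, whose values are also given below, a run of 9 ended before the first listed start.

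A cytosolic gene and the mitochondrial genes with the lowest p among those lower and higher in LKO are shown for contrast.
Rplp0 (chr5:115559457-115559486, plus strand): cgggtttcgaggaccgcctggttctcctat
Mrps12 (chr7:28741802-28741831, minus strand): aaggaggaaccccggaaggggctggaggta
Mrps10 (chr17:47369187-47369216, plus strand): CCCTCCacggtagagagggccatggaaacc
Mrps12 holds no run of 8 in this window, and the run of Mrps10 begins upstream of the bases shown and ends before the listed start. Rplp0 has none at the listed start either. No match says only that these letters are not in the window of that start.

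In the whole windows of 300 bases, read on both strands, CCGGAAG, the core that ETS family factors bind, was found in 40% of cytosolic and 36.8% of mitochondrial members, against 13.2% of all genes. AAGATGGC, a YY1 motif, was found in 10% of cytosolic and 17.6% of mitochondrial members, against 3.6% of all genes. GCATGCGC, an NRF1 motif, was found in 5.0% of cytosolic and 11.8% of mitochondrial members, against 4.09% of all genes. TATAAA was found in 11.7%, 7.35% and 14.5% of them in the same order. The matches describe letters, not binding. Cytosolic members with the pyrimidine run had a median log2 fold change of -0.10 between LKO and Flox (21 of 29 below 0), and those without it -0.05 (25 of 30 below 0), and the gap was not tested.

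The stalk proteins, which recruit the elongation factors to the large subunit, were among the cytosolic genes with the lowest estimates. Rplp2 (ENSMUSG00000025508) had 182, 196, 178, 163 and 203 TMM-scaled CPM (counts set to a common library total) in LKO 1 to 5, against 213, 259, 250, 199 and 177 in Flox 1 to 5. Flox 1, Flox 2 and Flox 3 lay above every LKO library, and Flox 5 lay below all but LKO 4, so the groups overlapped. The means were 184 ± 15.8 in LKO and 220 ± 34.5 in Flox (SD, n = 5 each), and the log2 fold change was -0.25 ± 0.12 (SE). Its unadjusted p of 0.0599 became 0.652 after Benjamini-Hochberg adjustment in edgeR's quasi-likelihood test. Without Flox 2 and Flox 3 it was -0.09.

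Rplp0, the base of the stalk and a common reference gene, had 408, 339, 386, 341 and 400 CPM in LKO 1 to 5, against 378, 436, 469, 455 and 406 in Flox 1 to 5, and a log2 fold change of -0.20 ± 0.11 (SE). Rplp1, the partner of Rplp2, had 416, 368, 384, 251 and 412 CPM in LKO 1 to 5, against 363, 441, 480, 441 and 405 in Flox 1 to 5, with -0.22 ± 0.15 (SE). LKO 4 stood below the other 9 libraries in Rplp1. The groups overlapped in both genes, and their adjusted p was 0.656 for Rplp0 and 0.684 for Rplp1 in edgeR's quasi-likelihood fit.

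Other proteins of the large subunit ranged from estimates as low as those of the stalk to values close to 0. Rpl34 had a log2 fold change of -0.22 ± 0.13 and Rpl37a -0.21 ± 0.12 (SE), a pair named after their values were seen, with groups that overlapped. Rpl13a, which also serves as a translational repressor of inflammatory messages, had 8.67, 10.2, 10.2, 13.0 and 8.74 CPM in LKO 1 to 5, against 12.3, 13.6, 13.8, 12 and 9.74 in Flox 1 to 5. LKO 4 stood with the Flox libraries and Flox 5 with the LKO libraries, and the log2 fold change was -0.27 ± 0.13 (SE), for which edgeR's quasi-likelihood test gave an adjusted p of 0.652. Its level is uncertain, since 59.3% of its transcript lies in exons of another annotated gene on the same strand, Gm45713. Rpl3, which reaches towards the peptidyl transferase centre, averaged 217 ± 7.28 CPM in LKO and 223 ± 18.5 CPM in Flox, a log2 fold change of -0.04 ± 0.09 (SE). Rpl10, which joins the large subunit late in its assembly, had -0.05 ± 0.11, Rpl39 of the exit tunnel -0.15 ± 0.11 and Rpl22 -0.09 ± 0.10. Rpl7 averaged 302 ± 19.0 CPM in LKO and 302 ± 10.1 CPM in Flox (SD, n = 5 each).

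Above 0 on the large subunit stood Rpl15, with 108 ± 5.45 CPM in LKO and 101 ± 5.51 CPM in Flox, and Rpl23a, at the mouth of the exit tunnel, with 26.6 ± 4.19 CPM in LKO and 24.2 ± 2.90 CPM in Flox (SD, n = 5 each). Their log2 fold changes were 0.09 ± 0.08 and 0.14 ± 0.12 (SE). Both differences were close to their own errors, and the groups overlapped.

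The small subunit showed the same pattern of small differences below 0. Rps27 had 72.3, 67.2, 75, 71 and 90.0 CPM in LKO 1 to 5, against 65.0, 100, 103, 92.1 and 86.3 in Flox 1 to 5, a log2 fold change of -0.25 ± 0.13 (SE). Flox 1 was the lowest of all 10 libraries, and Flox 2 to 4 lay above every LKO library. Rps21 averaged 100.2 ± 8.76 CPM in LKO and 117 ± 18.4 CPM in Flox, and Rps20, of the head of the subunit, 135 ± 10.7 CPM in LKO and 160 ± 28.0 CPM in Flox (SD, n = 5 each). Their log2 fold changes were -0.23 ± 0.12 for Rps21 and -0.24 ± 0.13 for Rps20 (SE), with adjusted p of 0.654 and 0.656 in edgeR's quasi-likelihood fit. All 3 genes overlapped between the groups.

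Rps6, whose protein is phosphorylated by the S6 kinases downstream of mTOR, lay close to 0. It had 216, 264, 230, 225 and 218 CPM in LKO 1 to 5, against 225, 286, 224, 219 and 193 in Flox 1 to 5. The LKO range lay inside the Flox range, with LKO 2 and Flox 2 the highest of their groups, and the log2 fold change was 0.01 ± 0.12 (SE). Rps2, near the entry channel of the message, had -0.05 ± 0.12 and Rps12 -0.12 ± 0.12. Rpsa, the laminin receptor and small subunit protein that falls outside the naming pattern, had 480, 515, 518, 514 and 489 CPM in LKO 1 to 5, against 584, 773, 652, 567 and 455 in Flox 1 to 5. Flox 1 to 4 lay above every LKO library and Flox 5 below all of them; the log2 fold change was -0.27 ± 0.14 (SE), for which edgeR's quasi-likelihood test gave an adjusted p of 0.652. Of the 6 cytosolic ribosomal proteins outside the pattern, 4 had a value below 0 and 2 above, and 0 had an unadjusted p under 0.05.

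**Figure D3:**
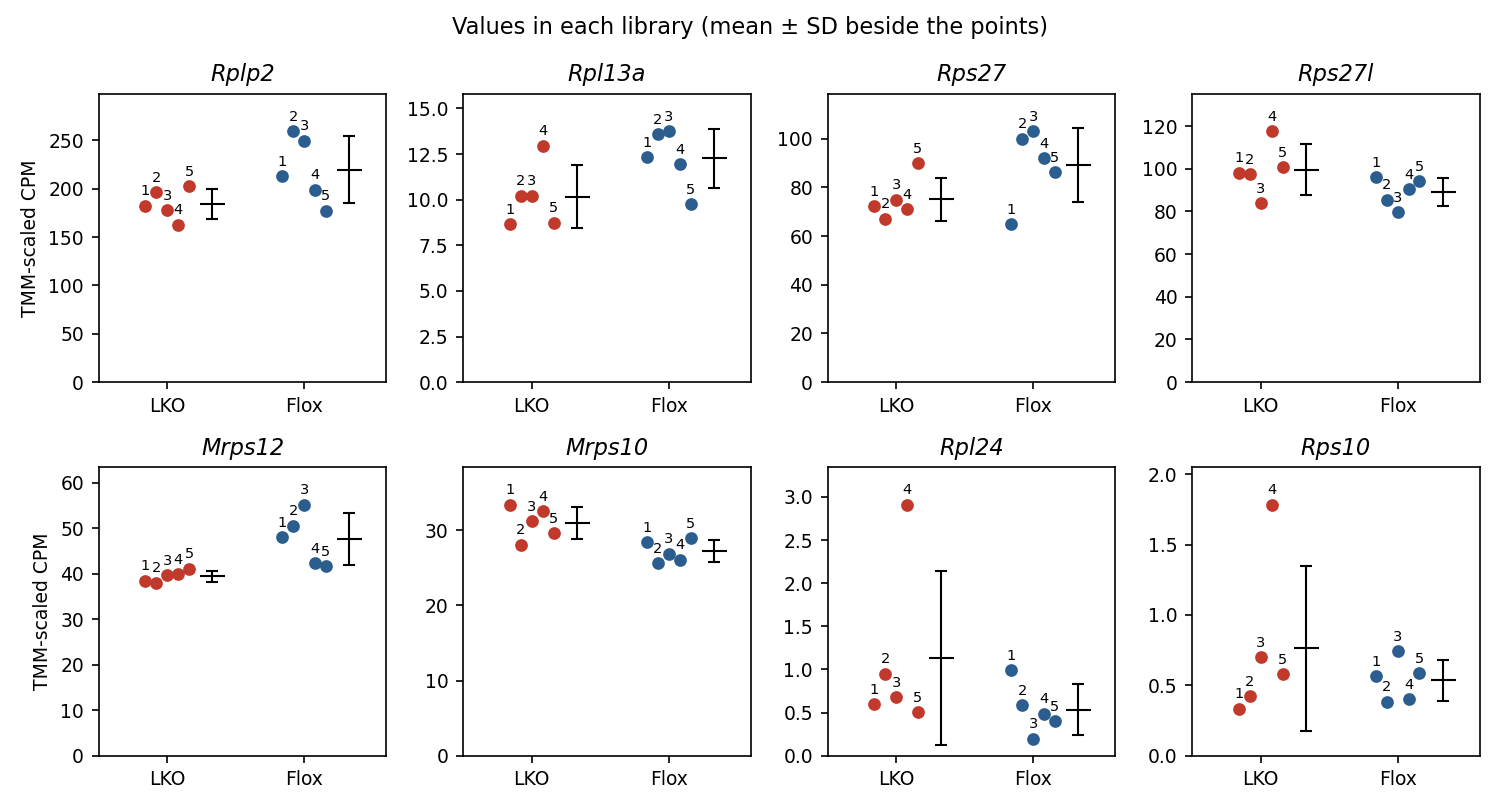
TMM-scaled CPM of 8 ribosomal protein genes in each library (numbered points), with the mean ± SD of the 5 LKO and the 5 Flox libraries beside them; every axis starts at 0. Mrps12 is the gene whose groups do not overlap (at most 41.1 in LKO, at least 41.6 in Flox), and LKO 4 stands alone in Rpl24 at 2.91 and in Rps10 at 1.78.

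Genes that encode variant forms of a ribosomal protein were measured beside their parents. Rps27l, a paralogue of Rps27 that p53 induces, had 98.2, 97.5, 83.9, 118 and 101 CPM in LKO 1 to 5, against 96.1, 85.4, 79.7, 90.4 and 94.3 in Flox 1 to 5. LKO 1, 2, 4 and 5 lay above every Flox library and LKO 3 near the low end of Flox, with a log2 fold change of 0.16 ± 0.10 (SE), at an adjusted p of 0.674 in edgeR's quasi-likelihood fit. As a percentage of Rps27 in the same library, Rps27l stood at 136, 145, 112, 166 and 112 in LKO 1 to 5, against 148, 85.5, 77.3, 98.2 and 109 in Flox 1 to 5. The means were 134% ± 23.0 in LKO and 104% ± 27.6 in Flox (SD, n = 5 each), and Flox 1 lay among the LKO libraries. Per kilobase of transcript, over all libraries, Rps27l stood at 79.4% of Rps27, since its transcript is longer. Nearly all of the Rps27 transcript, 98.6% of its stretches of 50 bases, is found in transcripts of other genes, against 22.4% for Rps27l, so reads of Rps27 could be split or lost more often.

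The other variants were minor beside their parents. Rpl7l1, known for a role in assembling the large subunit, stood at 19.1% ± 0.997 of Rpl7 in LKO and 19.7% ± 2.95 in Flox. Rpl22l1, the paralogue of Rpl22, stood at 4.07% ± 1.38 of Rpl22 in LKO and 3.48% ± 1.30 in Flox (SD, n = 5 each). Both differences were smaller than the spread between libraries, and per kilobase over all libraries the variants stood at 17.2% and 3.20% of their parents. Rpl3l, just above the limit of 10 counts, had 31 counts in all libraries together. Rpl39l had 9 counts, 6 in LKO and 3 in Flox, and fell just outside. Rpl10l, and on the mitochondrial side Mrpl53, are listed with 0 counts and are not members either. Rps4l, with 10065 counts (4323 in LKO and 5742 in Flox), carries a pseudogene label in the table and is not a member.

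Among mitochondrial members, the small subunit held the values at both ends. Mrps12 (ENSMUSG00000045948, chr7:28739641-28741820, GRCm38), the homologue of the bacterial decoding centre protein, had 38.4, 38.0, 39.7, 39.8 and 41.1 CPM in LKO 1 to 5, against 48.0, 50.5, 55.1, 42.3 and 41.6 in Flox 1 to 5. Every LKO library lay below every Flox library, by a margin of less than 1 CPM between LKO 5 and Flox 5. The means were 39.4 ± 1.25 in LKO and 47.5 ± 5.70 in Flox (SD, n = 5 each), and the log2 fold change was -0.27 ± 0.09 (SE). Its unadjusted p of 0.0124 became 0.652 after adjustment over all genes in edgeR's quasi-likelihood test. It was the only one of the 157 members whose groups did not overlap, where 144 of all 15894 genes (0.906%) did not, 59 of them (0.371%) lower in LKO. Without Flox 2 and Flox 3, the Mrps12 value was -0.16. Sars2, the mitochondrial seryl-tRNA synthetase gene that starts next to Mrps12 on the opposite strand, averaged 10.5 ± 0.479 CPM in LKO and 10.7 ± 0.813 CPM in Flox.

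Other small subunit genes with low estimates had overlapping groups. Mrps34 had 16.5, 13.9, 16.4, 8.94 and 15.6 CPM in LKO 1 to 5, against 14.1, 22.5, 21.8, 15.7 and 17.4 in Flox 1 to 5, the lowest log2 fold change of the mitochondrial members at -0.36 ± 0.18 (SE). LKO 4 was the lowest library by far and Flox 2 and Flox 3 the highest. Exons on the opposite strand, where Mapk8ip3 overlaps it, cover 62.7% of the Mrps34 transcript. Read on either strand, 52.4% of its stretches of 50 bases are found in transcripts of 1 other gene. Mrps7, the homologue of a bacterial protein of the subunit head, had 64.7, 60.4, 60.9, 65.3 and 62.8 CPM in LKO 1 to 5, against 70.2, 83.6, 87.6, 61.6 and 63.4 in Flox 1 to 5. Flox 1 to 3 stood above all LKO libraries while Flox 4 and Flox 5 stood among them, and the log2 fold change was -0.22 ± 0.11 (SE), for which edgeR's quasi-likelihood test gave an adjusted p of 0.652.

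Mrps10 stood at the other end, with 33.4, 28.1, 31.2, 32.5 and 29.6 CPM in LKO 1 to 5, against 28.4, 25.6, 26.9, 26.1 and 29.0 in Flox 1 to 5. The groups overlapped through LKO 2, and the log2 fold change was 0.19 ± 0.08 (SE). Its unadjusted p of 0.0360 likewise became 0.652 on adjustment in edgeR's quasi-likelihood test. Mrps22, of the small subunit and without a bacterial counterpart, averaged 22.0 ± 2.86 CPM in LKO and 18.7 ± 2.78 CPM in Flox, and Mrps31, likewise particular to mitochondria, 29.5 ± 2.77 CPM in LKO and 25.1 ± 4.37 CPM in Flox (SD, n = 5 each). Their log2 fold changes were 0.24 ± 0.13 for Mrps22 and 0.23 ± 0.12 for Mrps31 (SE). Mrps35 had 0.16 ± 0.10. Genes of 1 subunit thus held estimates of both signs, none past the adjusted threshold.

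Among mitochondrial members assigned to subunits by symbol alone, the large subunit varied less. The SD across log2 fold changes was 0.0953 for its 48 genes, against 0.151 for the 29 genes of the small subunit. Mrpl1 had 28.7, 28.1, 26.7, 29.8 and 23.5 CPM in LKO 1 to 5, against 25.4, 25.4, 19.5, 23.3 and 24.7 in Flox 1 to 5, a log2 fold change of 0.21 ± 0.10 (SE). LKO 5 lay inside the Flox range and the other LKO libraries above it. Mrpl54 averaged 24.6 ± 2.70 CPM in LKO and 28.6 ± 4.24 CPM in Flox, a log2 fold change of -0.22 ± 0.11, and Mrpl37 had -0.14 ± 0.09 (SE). Mrpl12, the stalk protein, which also binds the mitochondrial RNA polymerase, averaged 119 ± 16.6 CPM in LKO and 113 ± 9.28 CPM in Flox (SD, n = 5 each). The adjusted p was 0.652 for Mrpl1, 0.656 for Mrpl54 and 0.859 for Mrpl12 in edgeR's quasi-likelihood fit.

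The family of bacterial S18 homologues had estimates of either sign. Mrps18a, whose protein sits in the large subunit despite its name, had -0.15 ± 0.11, Mrps18c -0.16 ± 0.15 and Mrps18b 0.09 ± 0.15 on the log2 scale (SE). Their levels averaged 30.1 ± 4.46 CPM in LKO and 33.4 ± 2.60 CPM in Flox for Mrps18a, and 8.32 ± 1.98 CPM in LKO and 9.28 ± 0.695 CPM in Flox for Mrps18c. Mrps18b averaged 15.6 ± 2.76 CPM in LKO and 14.6 ± 2.73 CPM in Flox (SD, n = 5 each). None of the 3 passed the adjusted threshold.

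Levels were compared between genes per kilobase of transcript, over all 10 libraries. Cytosolic members had a median of 243 CPM per kilobase and mitochondrial members 16.7, a ratio of 14.6. Rplp1 was the highest cytosolic gene at 794 CPM per kilobase, followed by Rps2 at 625 and Rps12 at 610. Mrpl52 led the mitochondrial genes at 152 CPM per kilobase, followed by Mrpl12 at 88.1 and Mrps21 at 86.0, the last pair close together. Mrpl47 at 2.19, Mrpl19 at 2.32 and Mrps25 at 2.53 CPM per kilobase closed the order and were close together too. Their transcripts in the annotation have 3364, 5000 and 6073 bases, where the mitochondrial median is 1280. By CPM they averaged 7.38, 11.6 and 15.3, so their place depends on the transcript length used. The log2 fold changes of these genes were small, at -0.19 ± 0.13 for Mrpl52, -0.16 ± 0.11 for Mrps21, -0.05 ± 0.14 for Mrpl47, 0.07 ± 0.09 for Mrpl19 and -0.08 ± 0.11 for Mrps25 (SE). A stretch of 50 bases found in the transcripts of another gene was far more common in cytosolic members, at a median of 60.6% of a transcript's stretches, than in mitochondrial ones, at 2.67%. It was over 50% in 51 of 80 cytosolic and in 4 of 77 mitochondrial members, so counts of the cytosolic genes depend more on how reads with several matches were treated, which the sources used here do not state. Matches on either strand were counted, so overlap with a gene on the opposite strand adds to these shares.

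The low end of the cytosolic order held, among others, the genes that share most of their exons with another annotation. Rpl3l had 0.0451 CPM per kilobase, Rpl24 1.23, Rps10 1.30, Rpl22l1 8.45 and Rpl13a 10.7. In Rps10, Rpl24 and Rpl13a, 91.6%, 71.5% and 59.3% of the transcript lay in exons of another annotated gene on the same strand, and no other cytosolic and 0 mitochondrial members had over 50%. The overlapping rows, RPS10-NUDT3, Gm28037 and Gm45713, held 0 counts each. The levels of Rps10, Rpl24 and Rpl13a are uncertain for that reason. Strandedness is not stated, so overlap on the opposite strand may matter too. Exons on that strand covered 55.4% of the Rpl23a transcript and 68.3% of Rpl35. In the mitochondrial class they covered 62.7% of Mrps34, 75.6% of Mrps25, 59.1% of Mrps18b and 53.3% of Mrpl24. The levels of these genes are uncertain as well.

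Rpl24, of the bridge between the subunits, and Rps10, which is marked by ubiquitin on collided ribosomes, also had the highest fold changes, and these leaned on a single library. Rpl24 had 0.599, 0.951, 0.677, 2.91 and 0.505 CPM in LKO 1 to 5, against 0.993, 0.587, 0.197, 0.489 and 0.402 in Flox 1 to 5, and Rps10 had 0.333, 0.422, 0.698, 1.78 and 0.580 CPM in LKO 1 to 5, against 0.565, 0.385, 0.742, 0.401 and 0.585 in Flox 1 to 5. LKO 4 was the highest library in both, and the other libraries of the groups overlapped. The log2 fold changes were 1.07 ± 0.54 for Rpl24 and 0.51 ± 0.44 for Rps10 (SE), with adjusted p of 0.652 and 0.750 in edgeR's quasi-likelihood fit. Without LKO 4 they were 0.35 and -0.07. LKO 4 was also the highest library in the share of counts on rows named as pseudogenes of cytosolic ribosomal proteins, at 0.0607%, where the LKO mean was 0.0484% ± 0.00721 and the Flox mean 0.0505% ± 0.00423 (SD, n = 5 each).

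**Figure D4:**
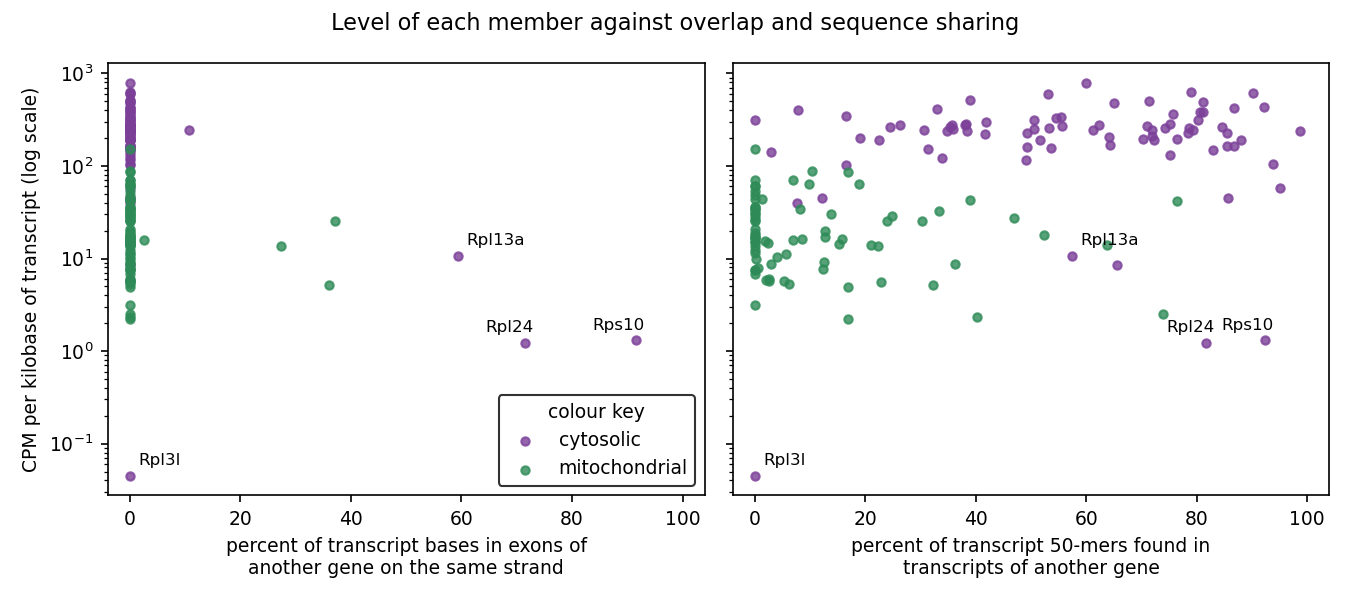
Level of each of the 157 members (CPM per kilobase of transcript, mean of 10 libraries, log axis) against the percent of its transcript in exons of another gene on the same strand (left) and the percent of its 50-base stretches found in transcripts of another gene (right). Rps10 and Rpl24, near 1 CPM per kilobase, lie at the right of the left panel at 91.6% and 71.5%, while most cytosolic genes keep levels above 100 at any degree of sharing on the right.

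The members varied little within a group. The SD of log2 CPM between libraries of a group had a median of 0.144 over cytosolic and 0.153 over mitochondrial members, against 0.195 over all tested genes with an average log2 CPM of at least 3. That set was not matched by level. The mean log2 CPM per library ran from 7.03 to 7.23 for cytosolic and from 4.56 to 4.74 for mitochondrial members. After the mean of its own family in each library was subtracted, the median was 0.130 for cytosolic and 0.135 for mitochondrial members. Subtracting this mean, in which every gene counts equally, thus lowered the spread only a little. With the mean of the other family subtracted instead, the median was 0.144 for cytosolic and 0.156 for mitochondrial members. Rps4x was the steadiest cytosolic gene, with an SD of 0.0418. By sum over the members, Flox 2 was the highest library for the cytosolic family, at 16493 CPM, and LKO 4 the lowest, at 13873 CPM, while for the mitochondrial family Flox 1 and Flox 2 were highest, at 2414 CPM each, and Flox 4 lowest, at 2112 CPM. By share of counts, Flox 2 was the highest library in both families.

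Fold changes were lower in members with a higher GC content, mostly in the mitochondrial class. Over all 15875 genes with a known transcript, the median log2 fold change was 0.07 in the lowest of 3 equal groups by GC content, -0.01 in the middle one and -0.08 in the highest, with Pearson's r of -0.16 across genes. Mitochondrial members had medians of 0.05, -0.02 and -0.10 over the same 3 groups, with 15 of 22, 13 of 32 and 4 of 23 genes above 0, and r of -0.44 across 77 genes. Cytosolic members had medians of -0.06, -0.05 and -0.10, with r of -0.12 across 79 genes. Without Rpl24 their r was -0.16 across 78 genes, close to that of all genes. These correlations are across genes, which share the libraries and are not independent replicates. Mrps34 and Mrps12, the lowest mitochondrial genes, had 60.6% and 58.9% GC, and Mrps22 and Mrps31, the highest, 45.8% and 44.2%. Set against the median of all genes in the same of 10 equal groups by GC content, 38 mitochondrial members lay above and 39 below, with a median of -0.00, and 23 cytosolic members lay above and 56 below, with a median of -0.04.

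**Figure D5:**
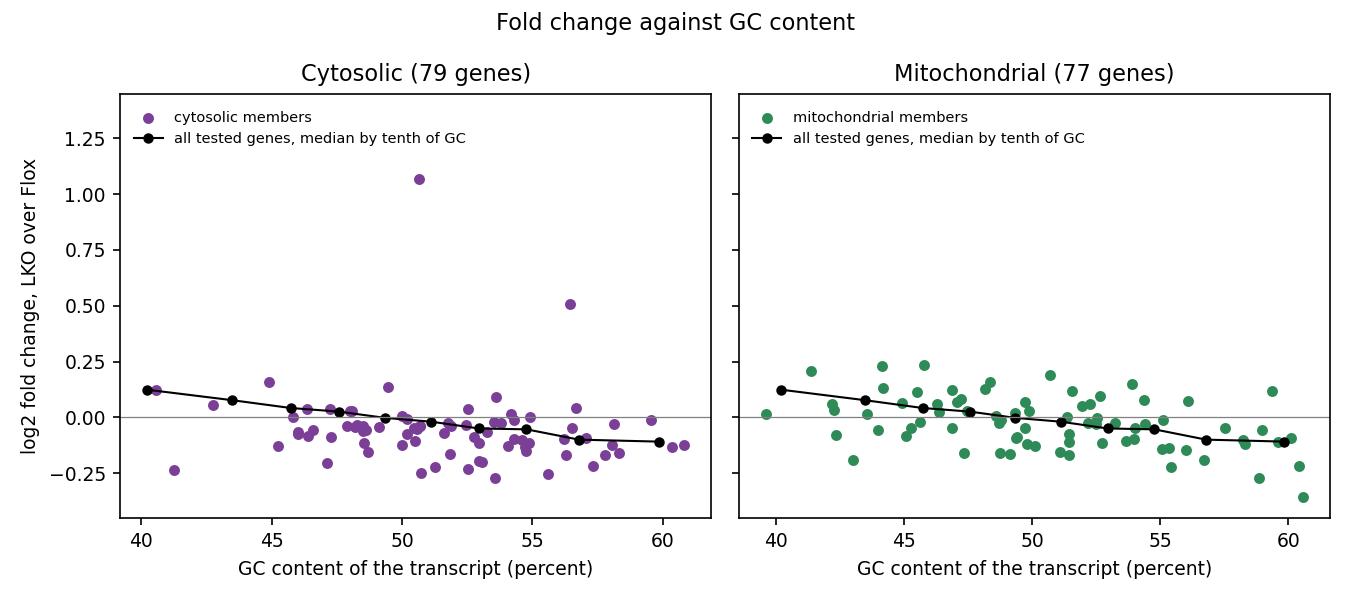
Log2 fold change, LKO over Flox, against the GC content of the transcript in percent for the 79 cytosolic (left) and 77 mitochondrial (right) members; the black line joins the medians of all tested genes in 10 equal groups by GC content. The mitochondrial genes slope down with the line (r of -0.44), and the cytosolic genes lie mostly a little below 0 throughout.

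In the rest of the translation machinery, 0 genes of any list below passed the adjusted threshold of edgeR's quasi-likelihood test. Counts at an unadjusted p under 0.05 stand beside the 7.51% of all genes at that level. Of 19 translation factors and other genes with TOP messages, 10 lay above 0 and 9 below, with a median log2 fold change of 0.02, where the cytosolic ribosomal proteins had -0.06. Eef1a1, the elongation factor that delivers tRNA, averaged 3424 ± 273 CPM in LKO and 3121 ± 267 CPM in Flox (SD, n = 5 each), and its log2 fold change was 0.13 ± 0.13 (SE). At an unadjusted p under 0.05 the list held Eif3e, a subunit of initiation factor 3, at 0.19 and Vim, vimentin, at -0.41. Of 73 ribosome biogenesis factors, 25 lay above 0 and 48 below (median -0.03), with Utp20, of the small subunit processome, at 0.33 and Eif6, which keeps the subunits apart, at -0.33. RNA polymerase I and its factors had 2 of 14 above 0 and 12 below (median -0.06), and 0 at an unadjusted p under 0.05.

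Regulators of ribosomal protein synthesis had 13 of 21 above 0 and 8 below (median 0.06). Larp4, an mRNA-binding protein that stabilises messages, had 36.9, 37.0, 42.5, 56.3 and 39.8 CPM in LKO 1 to 5, against 32.0, 37.0, 31.4, 32.9 and 36.2 in Flox 1 to 5, a log2 fold change of 0.33 ± 0.12 (SE). Deptor, an inhibitor within the mTOR complexes, averaged 232 ± 27.3 CPM in LKO and 177 ± 40.9 CPM in Flox, and Eif4ebp3, a binding protein of the cap-binding factor, 1.4 ± 0.375 CPM in LKO and 2.43 ± 0.950 CPM in Flox (SD, n = 5 each). The unadjusted p was 0.0190 for Larp4, 0.0326 for Deptor and 0.0236 for Eif4ebp3, and the adjusted p 0.652 for each, in edgeR's quasi-likelihood fit. At an unadjusted p under 0.05 this list also held Akt1s1, which encodes an inhibitor of an mTOR complex, with 50.8 ± 6.28 CPM in LKO and 61.0 ± 8.37 CPM in Flox (SD, n = 5 each) and a log2 fold change of -0.26; it was named after its values were seen. Among 12 ribosome quality control genes, 5 lay above 0 and 7 below; Ltn1, the ubiquitin ligase of stalled large subunits, stood at 0.27 and Abce1, which splits ribosomes, at 0.29, both at an unadjusted p under 0.05. Of 19 cytosolic tRNA synthetases, 11 lay above 0 and 8 below, with Dars at 0.23 and Yars at -0.29 under the same limit.

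On the mitochondrial side the lists were as mixed. Of 25 assembly factors of the mitochondrial ribosome, 8 lay above 0 and 17 below (median -0.06). Dhx30, an RNA helicase of that list, had 19.5, 18.5, 20.6, 18.2 and 20.6 CPM in LKO 1 to 5, against 23.7, 24.7, 23.6, 21.4 and 21 in Flox 1 to 5. The groups did not overlap, and the log2 fold change was -0.23 ± 0.08 (SE). The unadjusted p was 0.0145 and the adjusted p 0.652 in edgeR's quasi-likelihood test. Gtpbp10, a GTPase of large subunit assembly, stood at 0.26. Of 13 mitochondrial translation factors, 7 lay above 0 and 6 below, and of 17 mitochondrial tRNA synthetases 7 above and 10 below. Of 6 genes listed with the mitochondrial ribosome but outside the naming pattern, Oxa1l among them, 2 lay above 0 and 4 below. Of these 36 genes, 0 had an unadjusted p under 0.05.

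Markers of other cell types and of inflammation differed between the groups to varying degrees, 0 of them past the adjusted threshold of edgeR's quasi-likelihood test. All 8 acute phase genes lay below 0 at an unadjusted p under 0.05, with a median log2 fold change of -3.56, and their summed level ran from 3430 to 11020 CPM in LKO and from 3915 to 74129 CPM in Flox, Flox 3 being the highest. The 4 tested T and NK cell markers lay below 0, 2 of them (Lck and Nkg7) at an unadjusted p under 0.05, with sums of 0.798 to 1.95 CPM in LKO and 1.69 to 5.0 CPM in Flox. All 5 erythroid markers lay above 0 at an unadjusted p under 0.05, with sums of 450 to 879 CPM in LKO and 224 to 397 CPM in Flox. The 4 Kupffer cell markers lay below 0, with a median of -0.16, and had sums of 38.4 to 248 CPM in LKO and 56.5 to 309 CPM in Flox, and the 4 neutrophil markers 1.49 to 17.6 CPM in LKO and 0.676 to 16.1 CPM in Flox. The 3 tested neutrophil markers lay below 0, Elane at an unadjusted p under 0.05. Of the 4 B and plasma cell markers, 2 lay above 0 and 2 below, and their sums were 6.17 to 13.9 CPM in LKO and 3.86 to 22.4 CPM in Flox. Of the 4 hepatocyte markers, 4 lay above 0, Alb the most at 0.62, as did the 3 stellate cell markers and 3 of 4 bile duct cell markers, while 1 of 3 endothelial markers did; Alb was above and Clec4g, an endothelial marker, below 0 at an unadjusted p under 0.05. Endothelial sums were 36.0 to 49.6 CPM in LKO and 41.7 to 61.7 CPM in Flox, stellate sums 112 to 169 CPM in LKO and 68.2 to 177 CPM in Flox, and bile duct sums 11.1 to 19.2 CPM in LKO and 10.4 to 18.3 CPM in Flox. No list had a marker at 0 in every library. The part of these genes in the values of the ribosomal proteins was not tested.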

How the data were processed

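The deposited table gives raw read counts for Ensembl genes in 10 columns, 1 for each library, with no normalization, per the file headers. The tools listed in the submitters' processing notes are featureCounts 1.4.6-p5, Subread, STAR 2.5.1a and bcl2fastq, with the build GRCm38. The sources used here do not state strandedness, the annotation release or the treatment of reads with several matches, so reads of near-identical or overlapping genes may be lost or split. After 287 repeated lines were dropped, 55487 of 55774 remained. Flox columns and titles are both numbered 1 to 5, but LKO columns are numbered 1 to 5 and LKO titles 6 to 10, so LKO libraries are called by column number.

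Genes passing edgeR's filterByExpr (15894) were scaled by TMM and tested with the quasi-likelihood F test (edgeR 4.0.16, robust fit, no covariate, R 4.3.3), two-sided, with Benjamini-Hochberg adjustment over all of them and a threshold of 0.05. The code was tested on simulated data. Standard errors come from the F statistic. Level per kilobase, GC content, overlap and shared stretches of 50 bases use 1 transcript per gene of GENCODE M21 (GRCm38), the best ranked and then shortest. Gene names, identifiers and coordinates come from the table and that annotation. Promoters are RefSeq windows. The named genes are the 5 higher and 5 lower members of each class with the smallest p, a list of stalk proteins, variants and other well-known members, the 3 highest and 3 lowest per kilobase in each class, and up to 3 genes of each list. Alternatives were DESeq2 1.42.0, limma-voom with quality weights (limma 3.58.1), other scalings and filters, other denominators of the shares, and leaving out libraries. The members and lists were chosen with earlier results of these data known.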

Additional observations from a re-analysis of the deposited data

Results flagged for a closer look

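In 88 groups of 5 libraries, 44 genes and sums in each genotype, 6 held a library whose gap to the nearest other exceeded Dixon's 95% critical value of 0.71 of the group's range, and chance flags about 1 group in 20. LKO 4 stood at 2.91 CPM in Rpl24, where the other LKO libraries had 0.505 to 0.951. LKO 4 stood at 1.78 CPM in Rps10, where the others had 0.333 to 0.698. LKO 5 stood at 29.3 CPM in Mrpl54, above 22.9 to 24.6 in the other LKO libraries. LKO 2 stood at 264 CPM in Rps6, above 216 to 230 in the other LKO libraries. Flox 2 stood at 29.3 CPM in Rpl23a, above 22.2 to 23.5 in the other Flox libraries. Flox 4 stood at 28.7 CPM in Mrps18a, below 34.1 to 34.9 in the other Flox libraries.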

How the results depend on the processing

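No paired analysis was possible because no label links a Flox sample to an LKO sample. The titles number the Flox samples 1 to 5 and the LKO samples 6 to 10, and the column numbers 1 to 5 that both groups share name no pairs. Adjusted calls of members stayed at 0 for cytosolic and for mitochondrial genes in all 17 alternatives (79 and 77 tested, or 80 and 77 with no filter), and the smallest adjusted p of a named member was 0.357, for Mrps12 with DESeq2. Over all genes, 11 were called with DESeq2's Wald test and 0 in the other 16 alternatives. Genes at an unadjusted p under 0.05 numbered 2043 with no filter and 517 without Flox 2 and Flox 3, and 575 to 1885 when 1 library was left out. Cytosolic members at that level numbered 2 with library totals, 1 with DESeq2 and 0 to 6 when 1 library was left out (6 without Flox 1). Mitochondrial ones numbered 4 with limma-voom, 0 without Flox 2 and Flox 3 and 1 to 7 when 1 library was left out (7 without LKO 5). The cytosolic median log2 fold change ran from -0.10 to -0.04 and the mitochondrial one from -0.06 to 0.00, just above 0 only without LKO 3; the ratio of summed shares ran from 0.906 to 0.947 and from 0.939 to 0.977. The comparison within 10 groups by GC content was chosen after seeing the data, and no setting named here brought a member past the threshold. The causes of these shifts were not tested.

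Of 42 named genes, 32 kept their sign in all alternatives and 10 did not. When 1 library was left out, log2 fold changes ran from -0.023 to 0.031 for Rpl7, from -0.048 to 0.10 for Rps6, from -0.099 to 0.052 for Mrpl47 and from -0.058 (without Flox 1) to 0.32 for Rpl22l1. They ran from -0.070 (without LKO 4) to 0.69 for Rps10, from -0.092 to 0.017 (without Flox 2) for Rps2, from -0.072 to 0.0086 (without Flox 2) for Rpl3 and from -0.11 to 0.022 (without Flox 2) for Rpl7l1. Rpl7 also became 0.0033 with DESeq2 size factors and with DESeq2, 0.0021 with no filter and 0.0013 with 10 counts in 5 libraries. Rps6 became -0.029 with library totals, and Mrpl47 0.0087 with limma-voom. Without Flox 2 and Flox 3, Mrpl47 became 0.12, Rps2 0.030, Rpl3 0.027, Rpl7l1 0.11, Mrpl52 0.0021 and Rpl22 0.017.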
